A study of Mus musculus with 99 samples.

Results

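The Iroquois (Irx) genes Irx1, Irx2, Irx3, Irx4, Irx5 and Irx6 were followed in mouse ESCs in which Polycomb activity was removed or changed. These 6 genes, of 55341 gene names counted, were taken by name and not by a threshold on any measured value. Earlier results of these data were known when they were chosen. Each was followed in the RNA-seq counts and in every peak list, within a window made of the gene and 2.5 kb on either side.

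Irx proteins are homeodomain transcription factors of the TALE class that pattern the neural tube, heart, limb and retina during development. In the ESC genome their CpG-rich clusters are classic Polycomb targets. PRC1 carries the ubiquitin ligase RING1B, which places H2AK119ub1. PRC2, with its core subunit SUZ12, places H3K27me3. PCGF2 and CBX7 belong to canonical PRC1, and PCGF6 and RYBP to variant PRC1. MTF2 and EPOP mark one form of PRC2, whereas JARID2 and AEBP2 mark the other.

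All lines except Eed fl/fl were ESCs of the genotype ROSA26::creERT2 RING1A-/-;RING1B fl/fl, so RING1A was missing in the controls too. Cells received OHT (0.5 µM), which activates the Cre recombinase and deletes Ring1b, or ethanol as vehicle (−OHT). Parental cells had no transgene, while RING1B WT and RING1B I53S cells were stable clones that expressed wild-type RING1B or the catalytically inactive mutant from a plasmid promoter. MTF2 KO derivatives of these lines were made by CRISPR, and Eed fl/fl ESCs, derived from blastocysts, lost the PRC2 subunit EED with OHT. More than one Eed fl/fl clone was made, and the labels do not say which clone each library came from. RNA-seq had 2 libraries per group, 12 for the 3 RING1B lines and 4 for Eed fl/fl cells, all after 72 h. ChIP-seq was done once per antibody and group. Only MTF2 and JARID2 had 2 libraries, in the RING1B WT and RING1B I53S lines after 72 h. The libraries whose titles carry 48 are given here as 48 h of OHT, although the treatment text gives 72 h for all. Nothing states whether RNA replicates came from separate cultures, so adjusted p-values measure the spread between these libraries only.

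The RNA libraries held 8140106 to 12743460 counted reads in the RING1B lines and 6957248 to 9443814 in Eed fl/fl cells, so that 1 read of an Irx gene was worth about 0.1 CPM. The summed level of 9 ESC markers was between 6280 and 7850 CPM in all vehicle libraries of the RING1B lines and in RING1B WT cells with OHT, and between 3800 and 4110 CPM in Parental and RING1B I53S cells with OHT. In those OHT libraries the 6 primitive endoderm markers summed to 42.5 to 56.3 CPM, against 3.23 to 5.16 CPM in the vehicle libraries, and none of the 6 was at 0. The 6 trophoblast markers summed to 314 to 418 CPM against 162 to 229 CPM, and the 6 fibroblast markers to 44.8 to 55.3 CPM against 10.2 to 16.9 CPM, with Lum at 0 in all of these libraries and Col3a1 in all but those of RING1B I53S cells with OHT. RING1B WT cells with OHT lay between, with primitive endoderm markers at 9.57 to 13.6 CPM and fibroblast markers at 22 CPM, and with trophoblast markers at 221 to 248 CPM, which overlapped the vehicle range. In Eed fl/fl cells the ESC markers summed to 4690 to 5930 CPM in vehicle and to 3420 to 4670 CPM with OHT. Their primitive endoderm markers were at 18.2 to 28.6 and 24.5 to 27.3 CPM, and trophoblast markers at 149 to 195 and 200 to 295 CPM. Fibroblast markers were at 16.2 to 27.2 and 26.4 to 33.8 CPM there. The part of these cell states in the Irx values was not tested, and in bulk RNA more cells with a transcript cannot be told apart from more transcript per cell. Rnf2, which encodes RING1B, was at 175 ± 16.6 CPM in Parental cells with OHT and at 242 ± 38 CPM without (SD, n = 2). The deleted exons are not given in the sources used here, so this level does not check the deletion. Eed was at 41.6 ± 15.3 CPM in Eed fl/fl cells with OHT and 173 ± 49.2 CPM without (SD, n = 2).

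The genes lie in 2 clusters of 3. Coordinates are those of mm10 (GRCm38) with GENCODE M21 gene models. On chromosome 13, Irx1 (71957921 to 71963723, minus strand), Irx2 (72628820 to 72634198, plus strand) and Irx4 (73260479 to 73269608, plus strand) span 1312 kb. On chromosome 8, Irx3 (91798525 to 91802067, minus strand), Irx5 (92357625 to 92376286, plus strand) and Irx6 (92674288 to 92680956, plus strand) span 882 kb. Reads were counted without strand, and 124 exonic bases of Irx3 (4.49%) are shared with the antisense gene Irx3os and 152 of Irx6 (4.51%) with the antisense gene Gm45505, so reads there cannot be assigned to either strand.

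The DNA under the peaks is shown for 6 stretches, with every CpG in capitals, because the parts of MTF2 peaks that were kept and lost in RING1B I53S cells had different CpG contents, as given further on. All are from GRCm38.p6, 5′ to 3′ on the plus strand. The stretches upstream of Irx2 (chr13:72628570-72628819) and Irx4 (chr13:73260247-73260478) are RefSeq promoter sequences that end where the GENCODE gene begins. They held 19 CpGs each in 250 and 232 bases.

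Irx2 upstream: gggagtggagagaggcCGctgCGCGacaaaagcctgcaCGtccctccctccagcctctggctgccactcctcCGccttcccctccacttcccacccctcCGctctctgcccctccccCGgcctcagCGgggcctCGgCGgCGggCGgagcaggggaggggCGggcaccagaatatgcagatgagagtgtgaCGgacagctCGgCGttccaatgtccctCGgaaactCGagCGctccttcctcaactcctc
Irx4 upstream: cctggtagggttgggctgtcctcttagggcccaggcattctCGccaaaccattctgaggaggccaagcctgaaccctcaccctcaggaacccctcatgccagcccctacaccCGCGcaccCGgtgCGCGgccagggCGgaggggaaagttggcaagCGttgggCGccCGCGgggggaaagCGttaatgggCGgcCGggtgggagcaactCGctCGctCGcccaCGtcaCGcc

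The centre of the longest stretch with an MTF2 peak in both RING1B WT and both RING1B I53S libraries is shown for Irx3 (chr8:91800219-91800418, wholly in coding exon) and for Irx5 (chr8:92358377-92358576, 53 bases of coding exon and the rest intron). These 200 bases held 20 and 25 CpGs.

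Irx3 retained: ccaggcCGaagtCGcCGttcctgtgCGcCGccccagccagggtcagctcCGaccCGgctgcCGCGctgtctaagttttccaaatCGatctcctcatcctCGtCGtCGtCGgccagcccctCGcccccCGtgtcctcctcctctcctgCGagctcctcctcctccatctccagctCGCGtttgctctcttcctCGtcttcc
Irx5 retained: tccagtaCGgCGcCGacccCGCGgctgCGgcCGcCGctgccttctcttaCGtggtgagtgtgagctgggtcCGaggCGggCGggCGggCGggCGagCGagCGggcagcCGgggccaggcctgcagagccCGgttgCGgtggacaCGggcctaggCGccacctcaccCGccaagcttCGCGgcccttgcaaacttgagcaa

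For comparison, the centre of the upstream part of the longest stretch with an MTF2 peak in both RING1B WT libraries and in neither RING1B I53S library is shown for Irx3 (chr8:91803012-91803211) and Irx6 (chr8:92673740-92673939). Both lie upstream of the gene, the former inside the antisense gene Irx3os, and these 200 bases held 8 and 7 CpGs.

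Irx3 lost: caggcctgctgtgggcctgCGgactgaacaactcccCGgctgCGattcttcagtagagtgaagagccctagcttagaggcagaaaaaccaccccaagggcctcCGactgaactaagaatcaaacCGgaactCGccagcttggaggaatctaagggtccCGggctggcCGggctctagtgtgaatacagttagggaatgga
Irx6 lost: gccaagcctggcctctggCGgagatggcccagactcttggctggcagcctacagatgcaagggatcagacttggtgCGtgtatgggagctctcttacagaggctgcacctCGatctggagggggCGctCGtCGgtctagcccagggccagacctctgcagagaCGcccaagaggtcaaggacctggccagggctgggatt

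Without OHT the Irx genes were barely transcribed in the RING1B lines. The 6 genes together gave 2 to 22 counts per vehicle library, or 0.225 to 2.52 CPM. With OHT they gave 172 to 217 counts in Parental cells and 175 to 184 in RING1B I53S cells, but only 15 and 20 in RING1B WT cells. In summed level this was 19.8 ± 1.58 CPM in Parental, 18.8 ± 2.92 CPM in RING1B I53S and 2.07 ± 0.118 CPM in RING1B WT cells (SD, n = 2). The Parental and RING1B I53S libraries with OHT lay above all others of the RING1B lines, and they overlapped each other.

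**Figure D1:**
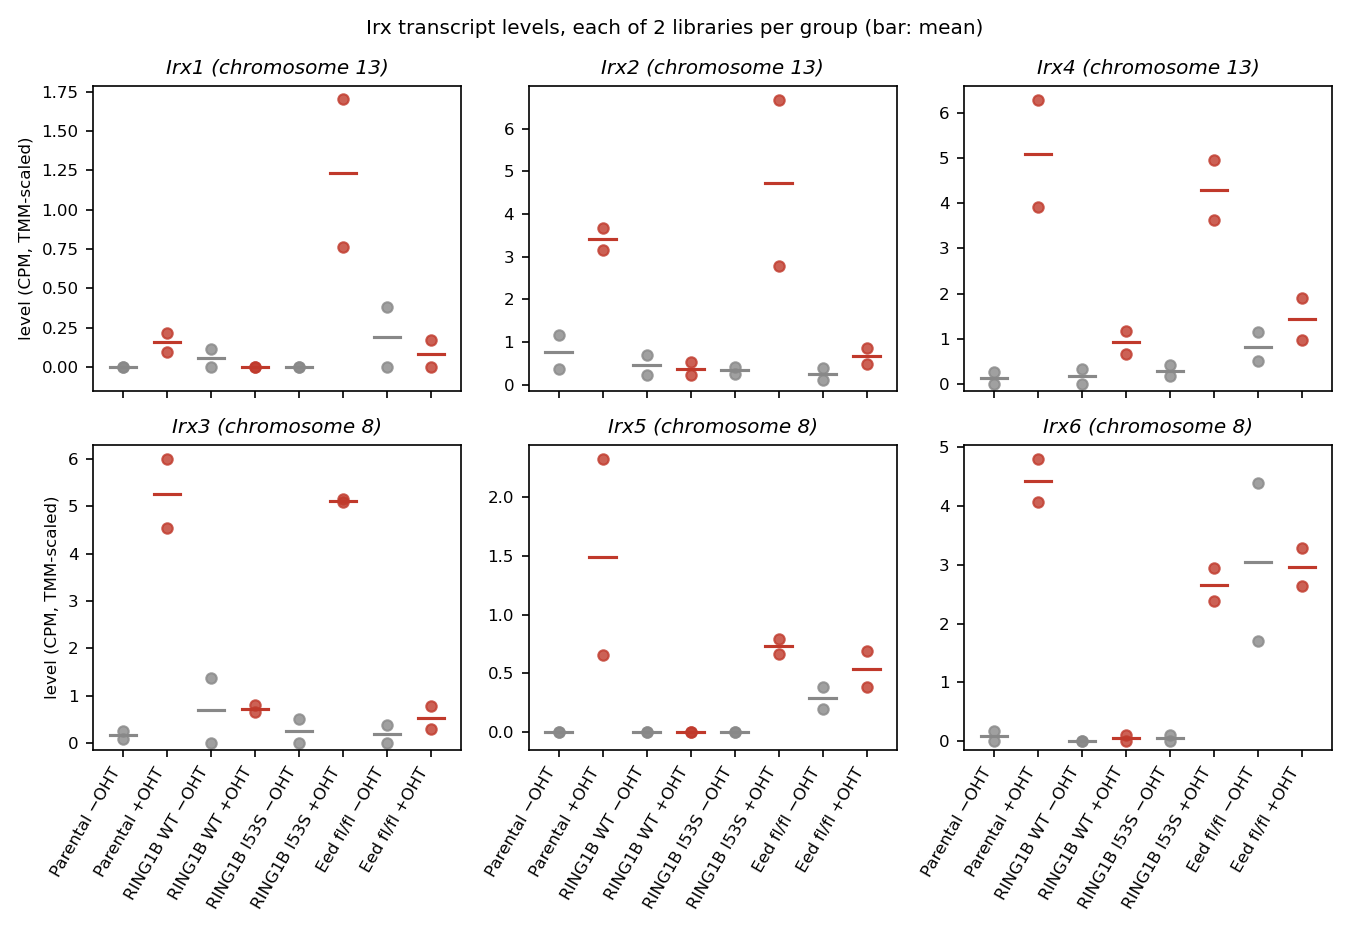
Level of each Irx gene (CPM scaled by TMM, linear axis that differs between panels) in each of 2 RNA-seq libraries per group; grey points are −OHT, red points +OHT, and bars are means. Irx2, Irx3, Irx4 and Irx6 were above 2.3 CPM in every Parental and RING1B I53S library with OHT and at most 1.38 CPM in every other library of the RING1B lines.

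Irx3, which shares expression domains with Irx5 in the neural tube and heart, went from counts of 1 and 2 in the Parental vehicle libraries to 47 and 55 in those with OHT. In the RING1B I53S line it went from 6 and 0 to 45 and 54. The OHT libraries lay far above the vehicle libraries in both lines. In edgeR's quasi-likelihood fit its log2 fold change was 4.86 ± 0.962 (SE) in Parental cells (adjusted p = 0.000627). The RING1B I53S value was 4.12 ± 0.859 (adjusted p = 0.00133). The RING1B WT line gave Irx3 counts of 12 and 0 in vehicle and 6 and 6 after OHT, so the groups overlapped.

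Irx4, known for ventricular identity in the heart, went from counts of 0 and 2 to 65 and 36 in the Parental line. In the RING1B I53S line it went from 2 and 4 to 32 and 52. It rose by a log2 fold change of 5.33 ± 0.892 in the former (adjusted p = 0.000129) and of 3.83 ± 0.754 in the latter (adjusted p = 0.000824). For RING1B WT cells, vehicle counts of 3 and 0 stood against 11 and 5 after OHT, which did not overlap, but the log2 fold change of 2.35 ± 0.99 did not pass (adjusted p = 0.242). By counts summed over the group this was a ratio of 5.57, with an exact 95% counting interval of 1.6 to 29.9.

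Irx6, expressed in retinal bipolar cells, went from counts of 2 and 0 to 42 and 44 in the Parental line, and from 0 and 1 to 26 and 25 in the RING1B I53S line. RING1B WT cells gave no Irx6 read in vehicle and counts of 1 and 0 after OHT. Irx6 was thus almost unread in every library of the RING1B lines but those 4. It rose by a log2 fold change of 5.18 ± 0.877 in the Parental line (adjusted p = 0.000169) and of 5.43 ± 0.987 in the RING1B I53S line (adjusted p = 0.000467).

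Irx2, a patterning gene co-expressed with Irx1 in many tissues, was the member with most reads summed over the 6 vehicle libraries of the RING1B lines. The Parental counts were 4 and 9 in vehicle and 38 and 29 after OHT. The RING1B I53S counts were 3 and 4 in vehicle and 59 and 29 after OHT. It rose in both, by a log2 fold change of 2.16 ± 0.674 (adjusted p = 0.0174) and of 3.74 ± 0.726 (adjusted p = 0.000726). The Parental call was lost when either Parental OHT library or the vehicle library of replicate 1 was left out, with a log2 fold change of 1.41 to 2.24 and an adjusted p of 0.053 to 0.193. The RING1B WT counts of Irx2 were 6 and 2 in vehicle and 2 and 4 after OHT, which overlapped.

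Irx1 and Irx5 did not pass the filter on low counts. Irx5, known for the retina and for cardiac repolarization, had no read in any of the 6 vehicle libraries of the RING1B lines or in RING1B WT cells with OHT. After OHT its counts were 24 and 6 in the Parental and 7 and 7 in the RING1B I53S line. Set against a floor of 3 counts over the group, it was at least 9.76-fold higher in Parental cells with OHT than without and at least 5.19-fold higher in RING1B I53S cells.

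Irx1, the homologue of Irx3 in the other cluster, was the member whose counts differed by the highest ratio between the Parental and RING1B I53S lines with OHT. It had counts of 1 and 2 in the Parental libraries and 15 and 8 in the RING1B I53S libraries, and no read in the vehicle libraries of either line. Against the same floor, RING1B I53S cells with OHT were 8.53-fold above those without, and the exact 95% counting interval began at 6.4. The ratio of RING1B I53S to Parental cells with OHT was 7.75, with an exact 95% counting interval of 2.34 to 40.3. In a fit without the filter the log2 difference was 2.86 ± 1.28 (SE), which did not pass (adjusted p = 1). Counting intervals cover counting error only.

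Irx2, Irx3, Irx4 and Irx6 were called higher with OHT in Parental and in RING1B I53S cells (log2 fold change of 1.5 or more in size, with an FDR under 0.05). The share of all 18154 genes called higher was 15.1% in Parental and 12.8% in RING1B I53S cells. These 4 genes passed the filter only through the OHT libraries, so that their number carries no weight of its own. Without the filter, 5 of 6 members were called in Parental cells and 6 of 6 in RING1B I53S cells, beside 7.98% and 6.66% of 37779 genes. The adjusted p of Irx5 was then 0.000556 in Parental and 0.00846 in RING1B I53S cells, and that of Irx1 was 0.401 and 0.00571. No member was called in RING1B WT cells in edgeR or in DESeq2, beside 1.38% of all genes in edgeR, and Irx4 alone had an unadjusted p under 0.05.

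**Figure D2:**
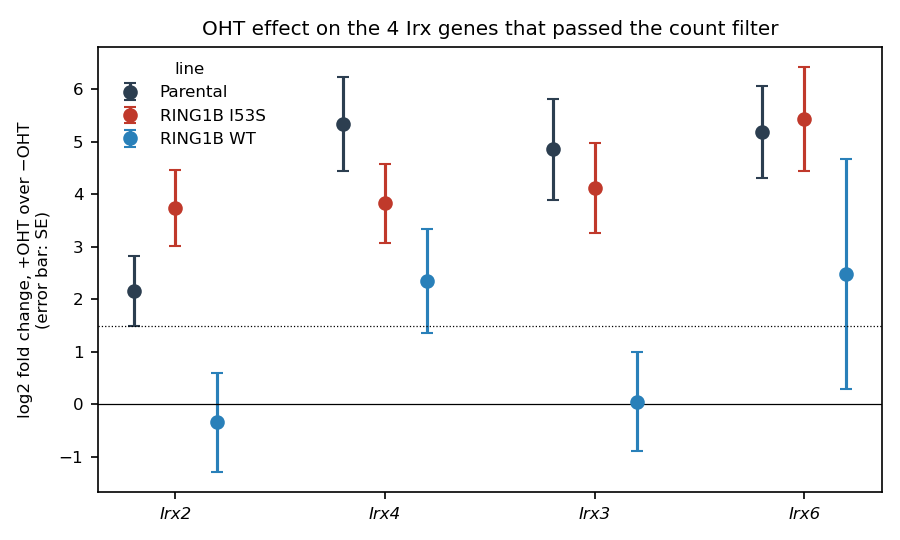
Log2 fold change with OHT over vehicle for the 4 Irx genes that passed the count filter, in the Parental, RING1B I53S and RING1B WT lines (points, edgeR estimates; bars, SE; dotted line, the threshold of 1.5). Irx2, Irx3, Irx4 and Irx6 lie above the threshold in Parental and RING1B I53S cells, from 2.16 to 5.43, whereas in RING1B WT cells none passed the test.

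Lines were then compared with OHT. Irx2, Irx3, Irx4 and Irx6 were called higher in RING1B I53S than in RING1B WT cells, beside 6.02% of all genes, with a log2 fold change from 2.12 ± 0.656 for Irx4 (adjusted p = 0.0376) to 5.15 ± 1.01 for Irx6 (adjusted p = 0.00273). The same 4 were called lower in RING1B WT than in Parental cells, beside 7.62% of all genes, from -2.35 ± 0.652 for Irx4 (adjusted p = 0.0163) to -5.87 ± 0.975 for Irx6 (adjusted p = 0.00048). Without the filter, 6 members were called in the former comparison, beside 3.54% of genes, and 5 in the latter, beside 4.24%. These comparisons share their RING1B WT libraries. With an OHT library left out, the number called in the former comparison was 1 without RING1B WT replicate 1 and 2 without RING1B WT replicate 2 or RING1B I53S replicate 1. In the latter it was 1 without RING1B WT replicate 1 and 2 without RING1B WT replicate 2 or Parental replicate 1.

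No member was called between the RING1B I53S and Parental lines with OHT, beside 0.16% of all genes. The log2 difference was 0.46 ± 0.565 for Irx2, -0.03 ± 0.631 for Irx3, -0.24 ± 0.558 for Irx4 and -0.72 ± 0.578 for Irx6 (adjusted p from 0.993 to 0.999). The difference in the OHT effect itself, RING1B I53S minus Parental, ranged from -1.5 ± 1.36 for Irx4 to 1.58 ± 1.02 for Irx2. No gene of the 18154 passed there (0%) in edgeR or in DESeq2, with 488 genes and no member at an unadjusted p under 0.05. The difference in the OHT effect of RING1B WT minus Parental was -4.81 ± 1.41 for Irx3 (adjusted p = 0.0817), and no member was called, beside 1.54% of all genes. Irx2 and Irx3 had an unadjusted p under 0.05 there, and DESeq2 called 1 member. In the absence of OHT no member differed between RING1B I53S and Parental (0.154% of all genes called) or between RING1B WT and Parental cells (0.0606%), where each adjusted p was 1, and no member had an unadjusted p under 0.05.

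Per kilobase of exon, the order of levels with OHT was close in both lines. In Parental cells Irx4 (1.96 ± 0.64 CPM per kb), Irx3 (1.91 ± 0.371), Irx6 (1.31 ± 0.154) and Irx2 (1.04 ± 0.11) were followed by Irx5 (0.475 ± 0.376) and Irx1 (0.06 ± 0.0327; SD, n = 2). In RING1B I53S cells Irx3 (1.85 ± 0.0152 CPM per kb) came before Irx4 (1.65 ± 0.363), Irx2 (1.44 ± 0.842), Irx6 (0.79 ± 0.117), Irx1 (0.469 ± 0.252) and Irx5 (0.233 ± 0.0281). In Parental cells the libraries of Irx4 and Irx3 overlapped, whereas those of all later neighbours in the order did not. In RING1B I53S cells the libraries of Irx3, Irx4, Irx2 and Irx6 overlapped from each to the next, and those of Irx6, Irx1 and Irx5 did not. With 2 libraries per group these separations carry no test. Members of both clusters stood among the highest and among the lowest.

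Eed fl/fl cells presented a different picture. Irx6 had counts of 17 and 46 in vehicle libraries and 27 and 38 with OHT, or 3.05 ± 1.9 and 2.95 ± 0.462 CPM (SD, n = 2). Its level without OHT was thus near that of RING1B I53S cells with OHT (2.66 ± 0.394 CPM). Irx4 had counts of 5 and 12 without OHT and 10 and 22 with OHT. Both groups overlapped for both genes, and replicate 2 lay above replicate 1 for all 6 members in each group. Between libraries of the same number Irx4 was at 0.502 and 0.972 CPM, and at 1.15 and 1.9 CPM, without and with OHT. The number is not stated to mark a shared clone or culture. The log2 fold change was 0.93 ± 0.671 for Irx4 (adjusted p = 0.838) and 0.08 ± 0.524 for Irx6 (adjusted p = 0.983). The sign of the Irx6 value turned in DESeq2. The other members had 2 to 15 counts per group and did not pass the filter. Irx2 went from counts of 1 and 4 to 5 and 10 with OHT. Irx3 went from 0 and 4 to 3 and 9, and Irx5 from 2 and 4 to 4 and 8. Like Irx4, these were higher with OHT in both pairs of the same number, whereas Irx1 and Irx6 were not. Summed over the group, the ratio was 2.8 for Irx2, with an exact counting interval of 0.968 to 9.85. It was 2.8 for Irx3 (0.849 to 11.9) and 1.87 for Irx5 (0.649 to 6.06). Each interval included 1. No member was called in edgeR or DESeq2, beside 0.00795% of 25170 genes in edgeR, and no member had an unadjusted p under 0.05. The deleted gene Eed was not called in that edgeR fit either, so a missing call does not show that a gene stayed unchanged. By the test of the difference in the OHT effect, Eed fl/fl minus Parental, the value was -4.3 ± 1.27 for Irx4 (adjusted p = 0.0374) and -5.02 ± 1.13 for Irx6 (adjusted p = 0.00518), beside 3.96% of 27663 genes called lower. Only 1 of these 2 was called without Parental vehicle replicate 1, Parental OHT replicate 1 or Eed fl/fl vehicle replicate 2. Line, origin and deleted gene cannot be told apart in this comparison. Reads at genes silent in the RING1B lines were not particular to Irx6 in Eed fl/fl libraries. Of 70 gene names within 500 kb of a member, 46 passed the count filter there, against 21 in the RING1B lines. Of all 55341 gene names, 25170 passed in Eed fl/fl cells and 18154 in the RING1B lines. Gm47838, for example, had no read in the RING1B lines and was at 2.31 and 4.39 CPM in Eed fl/fl vehicle libraries. The part of such reads in the Irx6 level was not tested.

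The antisense neighbour Irx3os had no read in the Parental vehicle libraries and counts of 31 and 31 after OHT, and it went from 7 and 0 to 23 and 16 in the RING1B I53S line. It rose in both, with an adjusted p of 0.000377 and 0.0282. Of 70 gene names within 500 kb of a member, 21 were tested, and 4 were called higher and none lower in each of the 2 lines, beside 15.1% and 12.8% of all genes called higher. Their median log2 fold change was 0.39 in Parental and 0.25 in RING1B I53S cells, beside 0.03 and 0.01 over all genes. Besides Irx3os these were Mmp2, a matrix metalloproteinase gene beyond Irx6 (1.84 ± 0.26 in Parental and 1.83 ± 0.26 in RING1B I53S cells), and the transporter genes Slc6a2 for noradrenaline (5.33 ± 1.12 and 5.28 ± 1.12) and Slc6a3 for dopamine (4.42 ± 0.765 and 4.03 ± 0.741). Fto, the demethylase gene beside Irx3 whose introns hold long-range enhancers of Irx3, was at 0.05 ± 0.174 in Parental cells (adjusted p = 0.862).

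Other genes of the TALE class and of tissues that Irx genes pattern were followed as lists. Besides transcription factor genes these hold signalling and muscle structure genes, and myosin genes were among the cardiac genes called. The counts are to be read beside the 15.1% of all genes called higher in Parental and 12.8% in RING1B I53S cells. As with the members, list genes near 0 in vehicle passed the count filter through the OHT libraries. The lists were also chosen with earlier results of these data known, so their counts carry no weight of their own. Of 12 other TALE genes, all tested, 4 were called higher in Parental and 3 in RING1B I53S cells, among them Mkx (2.24 ± 0.265 and 1.81 ± 0.252), a tendon regulator, and Meis1 (2.17 ± 0.289 and 1.85 ± 0.287), a Hox cofactor. The median over the list was 0.65 and 0.85. Of 12 tested neural tube patterning genes, 8 were called higher in each line, with a median of 3.17 and 3.35, among them Pax3 (5.82 ± 0.449 and 4.15 ± 0.371) and Msx1 (4.72 ± 0.581 and 5.27 ± 0.649). Of 9 tested cardiac genes, 8 were called higher in each line, with a median of 3.01 and 2.48, among them Hand1 (6.33 ± 0.462 and 3.19 ± 0.351) and Tbx20 (3.01 ± 0.373 and 2.48 ± 0.356). In the RING1B WT line Pax3 was called among the neural genes and Hand1 among the cardiac genes, and none of the TALE genes. In Eed fl/fl cells no gene of any of these lists was called, and nor was Eed itself. Among cell state markers, Tdgf1 (-3.36 ± 0.212) and Zfp42 (-2.03 ± 0.21) of the ESC list fell in Parental cells, and Pdgfra (4.14 ± 0.438) and Gata6 (8.77 ± 1.03) of the primitive endoderm list, Krt18 (2.33 ± 0.223) and Krt8 (1.55 ± 0.209) of the trophoblast list and Col1a1 (2.68 ± 0.306) and Col1a2 (5.29 ± 0.764) of the fibroblast list rose.

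Across the 12 libraries of the RING1B lines the 4 tested members followed each other with Pearson's r from 0.83 (Irx2 and Irx4) to 0.903 (Irx3 and Irx4) on log2 CPM, a description over libraries that fall into 2 sets. The genes with the most similar profile were Gad2 (0.972) and Aldh5a1 (0.97) for Irx2, Frem2 (0.98) and Obsl1 (0.978) for Irx3, Efcc1 (0.988) and Foxa1 (0.986) for Irx4, and Tbx22 (0.992) and Grb14 (0.987) for Irx6.

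ChIP-seq peak lists were next read at the 6 windows. A peak list gives position and a score, the −log10 p-value from MACS2, always at least 10. Library depth is not in the lists, so scores and covered bases between libraries are given as they are, with no test, and a missing peak means that none was listed. Genome-wide ratios are of all bases under peaks, with peaks found only in the second group included. They do not measure retention at the peaks of the first group.

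In Parental cells without OHT, RING1B peaks lay at all 6 genes and covered 55.9% of the windows, with 9.37 Mb in all over the genome. RING1B WT cells with OHT also had RING1B peaks at 6 of 6, covering 45%. RING1B I53S cells and Parental cells with OHT had a RING1B peak at none. Of all genes with a RING1B peak, 84.5% lost it from RING1B WT to RING1B I53S cells, and 95.4% from Parental −OHT to +OHT.

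Canonical PRC1 followed RING1B in part. CBX7 covered 63.3% of the windows in Parental cells without OHT and 46.2% in RING1B WT cells, and no window in RING1B I53S or Parental cells with OHT (98.6% and 98.7% of all genes lost it). PCGF2 was at 6 of 6 genes in Parental −OHT and RING1B WT cells. In Parental cells with OHT it was at none (98.8% of all genes lost it), but in RING1B I53S cells 3 of 6 genes kept a PCGF2 peak (82.7% lost it). These were Irx5 (1991 bp, highest score 26.6), Irx1 (1683 bp, 23.3) and Irx3 (349 bp, 10.6), against 10167, 7846 and 6472 bp in RING1B WT cells. The retained PCGF2 peaks stood beside no RING1B peak in the same cells.

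Variant PRC1 was seen less. PCGF6 had a peak at 5 genes, all but Irx6, in Parental cells without OHT and at all 6 in RING1B WT cells. It had none in RING1B I53S cells (64.3% of all genes lost it), and in Parental cells with OHT only Irx2 kept 588 bp (43.3% lost it). Covered bases were 13487 in Parental −OHT and 25204 in RING1B WT cells, a ratio of 1.87, while the genome-wide cover was 6.87 and 7.89 Mb. RYBP had a peak at no Irx gene in Parental cells without OHT, at Irx3 alone in RING1B WT cells (151 bp), and at none in RING1B I53S cells, where 62.7% of all genes with a RYBP peak had lost it.

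H2AK119ub1 peaks were still listed after OHT. The lists were read without the Drosophila spike-in, so they do not give the amount of the mark. By spike-in-scaled ChIP-seq and western blot, the paper reports that RING1B I53S cells with OHT lost the mark completely. In its western blot, Parental cells with OHT were at a similar level. RING1B WT cells had H2AK119ub1 peaks over 67.6% of the windows, RING1B I53S cells over 24.6% and at 5 genes, all but Irx6, and Parental cells over 63.5% without and 31.6% with OHT, at 6 genes each. Of all genes with a peak, 64.7% lost it in RING1B I53S and 40.4% in Parental cells. The ratio of covered bases, RING1B I53S to RING1B WT, was 0.364 at the windows against 0.13 over the genome, where cover went from 33.8 to 4.38 Mb. The highest score went from 98.6 to 39.3 at Irx2 and from 94.1 to 28.9 at Irx5.

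**Figure D3:**
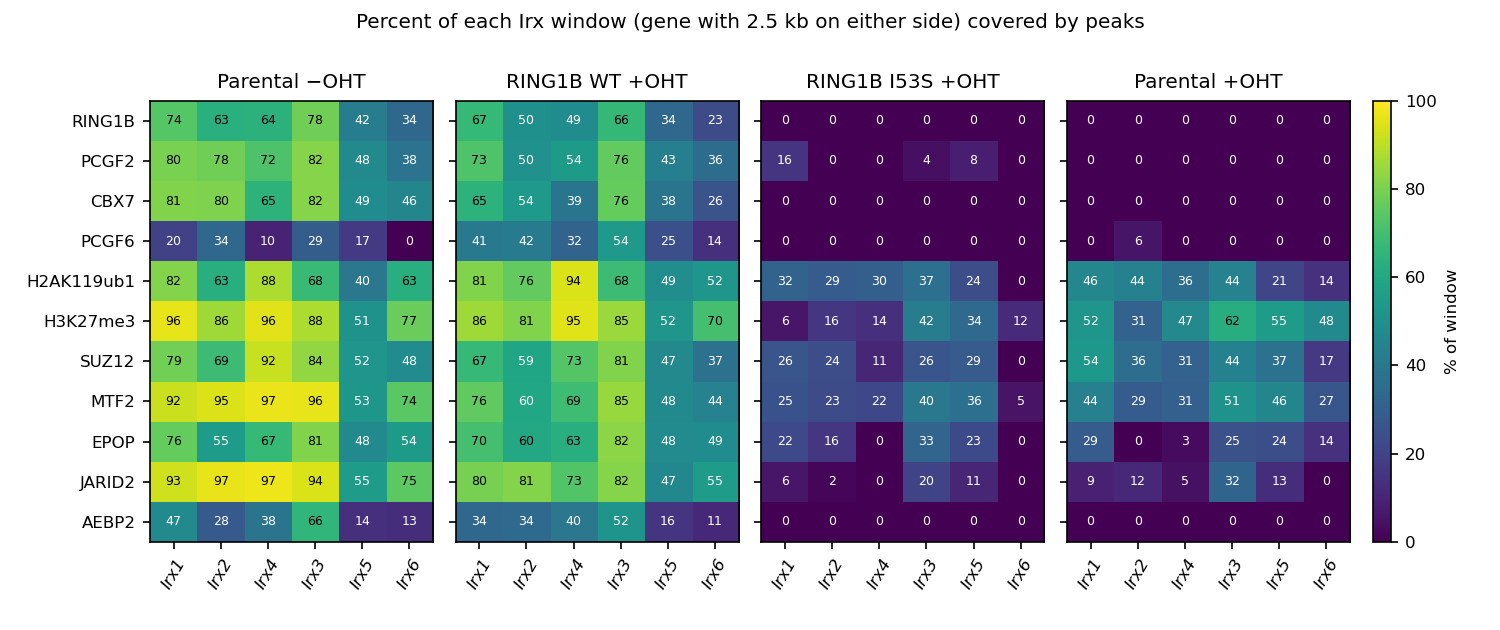
Percent of each Irx window (gene with 2.5 kb on either side) covered by peaks, for 11 antibodies (rows) and 6 genes (columns), in 4 groups (panels; mean of 2 libraries for MTF2 and JARID2 in RING1B WT and RING1B I53S cells). RING1B, CBX7 and AEBP2 are at 0 in both right panels, whereas H3K27me3 and MTF2 remain at every gene, with Irx6 lowest for MTF2.

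H3K27me3 remained at every member, over fewer bases. It covered 74.4% of the windows in RING1B WT cells and 21.9% in RING1B I53S cells, a ratio of 0.294. Over all listed peaks of the genome, those only in RING1B I53S cells included, the ratio was 0.743 (43.3 and 32.1 Mb). In Parental cells it covered 77.5% without and 49.7% with OHT, a ratio of 0.642 beside 0.623 over the genome. No member lost all H3K27me3 peaks, beside 38.2% and 34.1% of all genes, although only 3 members had one with a score of at least 20 in either case. Irx1 went from 9269 to 654 bp and Irx6 from 8225 to 1415 bp between RING1B WT and RING1B I53S cells, while Irx5 kept 8090 of 12314 bp.

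SUZ12 covered 58.2% of the windows in RING1B WT and 20% in RING1B I53S cells, where Irx6 alone had lost it (49.2% of all genes lost it). It covered 67.8% and 35.9% in Parental cells without and with OHT, with no member lost (34.5%). The ratios of 0.344 and 0.53 stood beside 0.325 and 0.444 over the genome. The highest SUZ12 score in RING1B I53S cells was at Irx3 (64.4), against 384 in RING1B WT cells.

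MTF2, a DNA-binding PRC2 subunit that prefers unmethylated CpG, was still listed at every member. In RING1B I53S cells 5 genes had an MTF2 peak in the library of replicate 1 and 6 in that of replicate 2, over 17.3% and 35.5% of the windows, against 61.5% and 59.1% in the RING1B WT libraries. The RING1B I53S libraries thus differed from each other by more than the RING1B WT libraries did, and both were below them. Parental cells with OHT had MTF2 at 6 genes (38.4%). No member lost MTF2 in either comparison, beside 18.6% of genes from RING1B WT to RING1B I53S and 53.2% in Parental cells. The former loss needed a peak in both RING1B WT libraries and in neither RING1B I53S library. The latter rests on 1 library per group, so these 2 shares do not follow the same criterion. At Irx3 the highest score was 580 and 380 in RING1B WT and 60.3 and 111 in RING1B I53S cells. At Irx6 it was 156 and 132 in RING1B WT cells, no peak in RING1B I53S replicate 1 and 23.3 in replicate 2.

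EPOP, the elongin-binding partner of MTF2-containing PRC2, was at 4 genes in RING1B I53S cells (58.8% of all genes lost it; Irx4 and Irx6 here) and at 5 in Parental cells with OHT (60.8% lost it; Irx2 here), over 15.4% and 16.5% of the windows. In RING1B WT cells it covered 59.2%.

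JARID2 was lower. It covered 63% and 67.9% of the windows in the RING1B WT libraries and 9.42% and 3.62% in the RING1B I53S libraries, which had it at 4 genes and at 2 (Irx3 and Irx5). Irx4 and Irx6 had it in neither library, beside 76.8% of all genes with a JARID2 peak in both RING1B WT libraries. In Parental cells cover was 80.3% without and 11% with OHT, where Irx6 lost it, beside 84.9% of all genes. AEBP2 covered 28% of the windows in RING1B WT cells and was at no Irx gene in RING1B I53S or Parental cells with OHT (98.4% and 99.4% of all genes lost it).

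**Figure D4:**
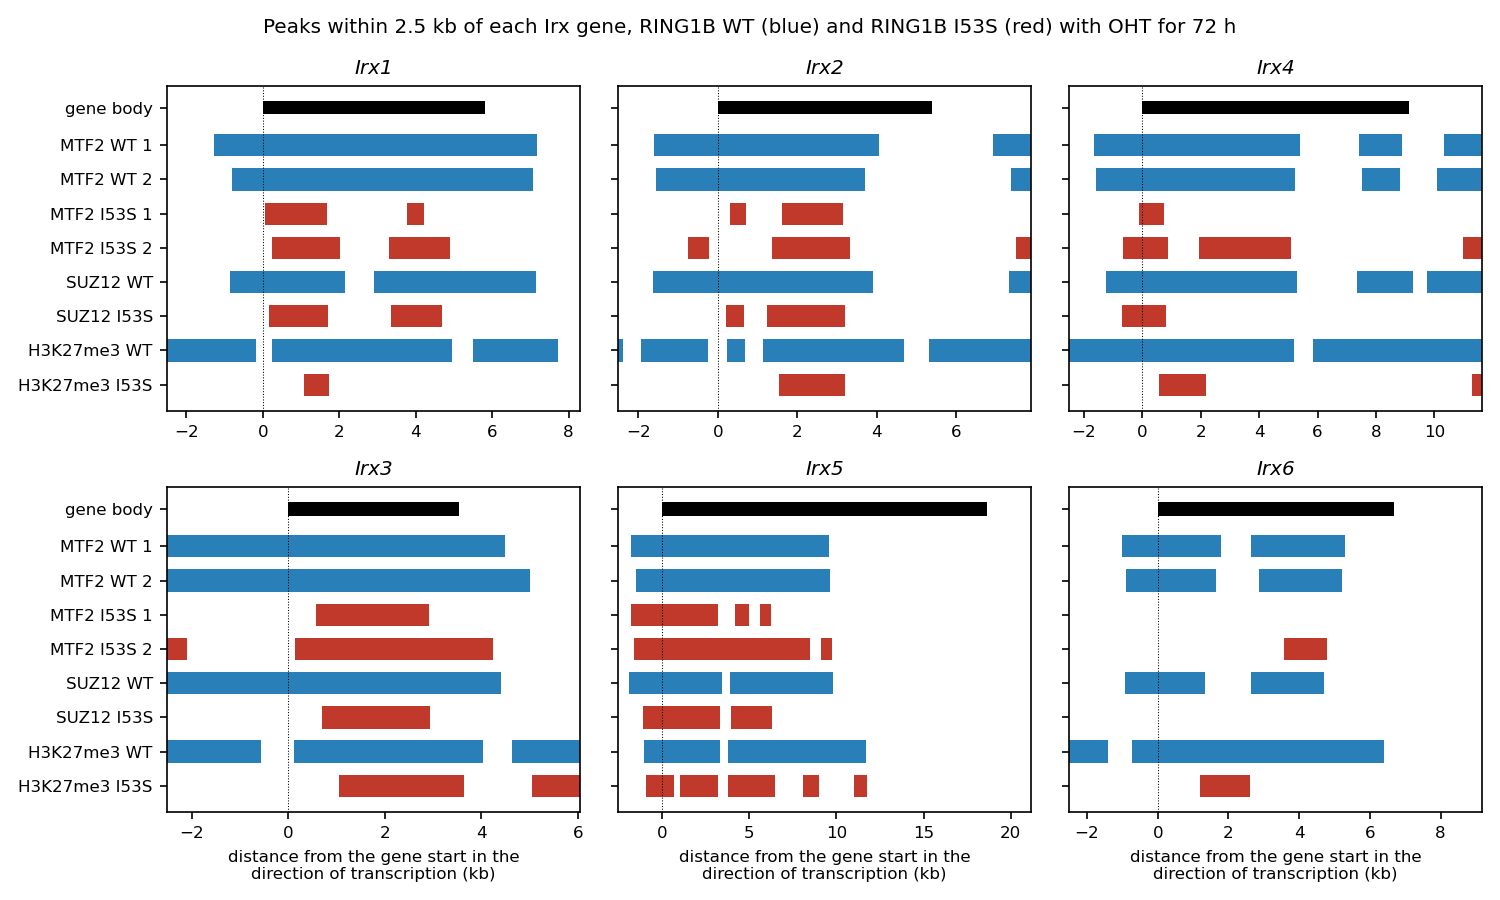
Peaks of MTF2 (2 libraries), SUZ12 and H3K27me3 at each Irx gene in RING1B WT (blue) and RING1B I53S cells (red) with OHT for 72 h. The x axis is the distance from the annotated gene start in kb, the black bar is the gene body. In RING1B I53S cells the peaks are shorter at every gene; Irx5 keeps the longest and Irx6 has no SUZ12 peak.

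The libraries at 48 h had values between those of vehicle and 72 h in Parental cells. In Parental cells JARID2 covered 80.3% without OHT, 29.3% at 48 h and 11% at 72 h, and MTF2 79.4%, 52.5% and 38.4%. In RING1B I53S cells JARID2 covered 71.8% without OHT, 11.3% at 48 h and 9.42% and 3.62% at 72 h, and MTF2 69.1%, 43.7%, and 17.3% and 35.5%. In RING1B WT cells MTF2 covered 69% without OHT, 66.3% at 48 h and 61.5% and 59.1% at 72 h. At 48 h in RING1B I53S cells Irx4 and Irx6 were already the members without a JARID2 peak.

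In MTF2 KO cells the Irx windows held SUZ12 where RING1B was intact or rescued by the wild-type transgene. SUZ12 covered 57.4% of the windows in Parental MTF2 KO cells without OHT and 49% in RING1B WT MTF2 KO cells with OHT, at 6 genes each. With OHT it was at no member in Parental or RING1B I53S MTF2 KO cells (77.4% and 89.5% of all genes lost it). H3K27me3 covered 33.5% in Parental MTF2 KO cells without OHT, at 6 genes, and 21.1% in RING1B WT MTF2 KO cells, at 5, all but Irx2. It too was at no member with OHT in Parental or RING1B I53S MTF2 KO cells (94.3% and 77.2% lost it). With MTF2 present, SUZ12 was at 6 and 5 members and H3K27me3 at 6 and 6 in the matching cells. The MTF2 KO libraries had 1 per group, and 332 H3K27me3 peaks were listed in all for Parental MTF2 KO cells with OHT. The 4 input libraries of the MTF2 KO lines had no peak at any member.

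The retained parts of the MTF2 peaks were richer in CpG. Within the windows, 12815 bp had a peak in both RING1B WT and both RING1B I53S libraries and held 7.69 CpGs per 100 bp. The 15584 bp kept in 1 RING1B I53S library held 4.13, and the 17599 bp kept in neither held 3.69, against 1.37 outside the RING1B WT peaks. The sequences above show this contrast between the retained coding exon of Irx3 (10 CpGs per 100 bp) and the lost stretch upstream of it (4). Over all chromosomes the same parts held 7.38, 4.79 and 3.59 CpGs per 100 bp, beside 0.826 in the genome, so the order was not particular to the Irx genes.

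Between the members, the retained part held from 6.88 CpGs per 100 bp at Irx5, where it was longest (6196 bp), to 11.7 at Irx4, where it was shortest (853 bp). At Irx6 no base was kept in both libraries, and the 1218 bp kept in 1 library held 2.79 CpGs per 100 bp, below the 3.58 of the lost part. The Irx6 window had the lowest CpG content of the 6, with 2.18 per 100 bp against 3.22 to 4.96 in the others. Retained bases lay inside the gene at Irx1, Irx2 and Irx3 and across the gene start at Irx4 and Irx5.

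**Figure D5:**
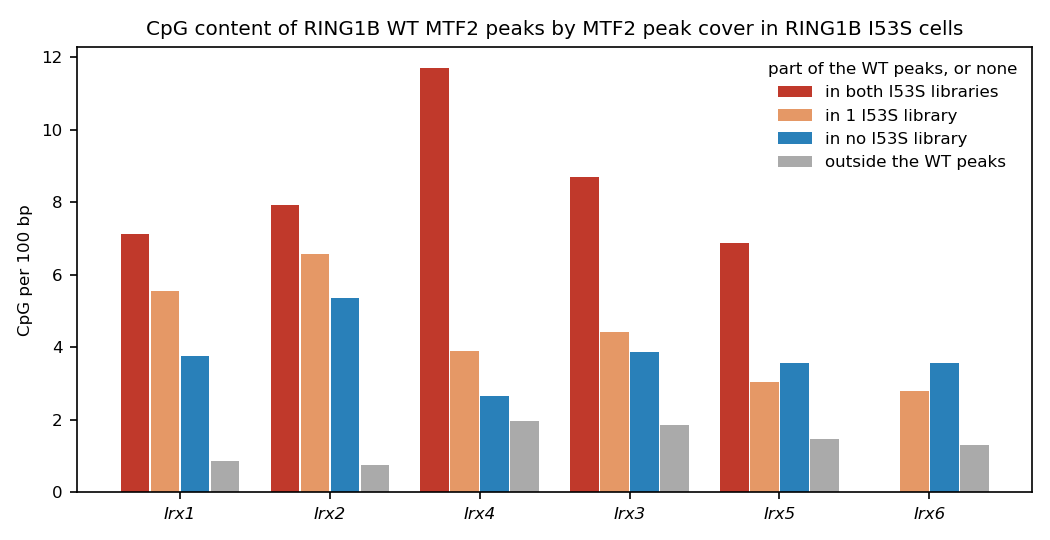
CpGs per 100 bp (bars from 0) in the parts of the RING1B WT MTF2 peaks that had a peak in both, 1 or none of the 2 RING1B I53S libraries, and in the rest of each window. The parts kept in both libraries reach 6.88 to 11.7, above the other parts at each of the 5 genes that have one, and Irx6 has none.

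The RefSeq promoters of Irx2 and Irx4 (250 bases before to 50 after the start) held 25 and 31 CpGs, more than 81.6% and 89.4% of 32851 promoters, whose median was 7. That of Irx3 held 14, more than 63.7%, but it does not lie at the gene start used elsewhere here. All 300 of its bases were in the part of the MTF2 peak kept in 1 RING1B I53S library. The bases from -2088 to 138 around the GENCODE gene start were kept in neither. The letters CACGTG, the E-box read by MAX, a partner of PCGF6 (a palindrome, so both strands are covered), were in none of these 3 promoters and in 7.15% of all. Of the Irx4 promoter 188 of 300 bases lay in the part of the MTF2 peak kept in both RING1B I53S libraries, whereas 278 bases of the Irx2 promoter, CpG-rich as printed above, lay in the part kept in neither.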

How the data were processed

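Per the labels and the study's methods, the authors aligned SMART-seq2 reads with STAR 2.7 to mm10 and made the deposited raw counts per gene with featureCounts, without normalization. They aligned ChIP-seq reads with Bowtie 1.2.2 to mm10, or for histone marks to mm10 and the dm6 spike-in, and called peaks per library with MACS2 2.1.1. The deposited peak scores are −log10 p-values, and in every list they are at least 10. The read depth of ChIP-seq libraries and the spike-in were not used here. Deposited tables of the authors' own comparisons hold log2 fold changes and p-values and were not used.

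Counts were tested with edgeR 4.0.16 (quasi-likelihood F test, TMM, filterByExpr) in 1 fit of 12 libraries (18154 genes), 1 of 4 Eed fl/fl libraries (25170) and 1 of all 16 libraries (27663) for the difference between lines. Adjusted p-values are Benjamini-Hochberg over all genes tested. A gene was called at a log2 fold change of 1.5 or more in size and an FDR under 0.05. Levels are CPM scaled by TMM over all 16 libraries, divided by the exon union of GENCODE M21 where genes are compared. Counting intervals are exact at 95% on the counts as read, and for a ratio a group at 0 was set to a floor of 3 counts. A gene had a peak if 1 bp of the gene with 2.5 kb on either side was overlapped. Genes are named as follows: the 6 members, the 2 genes with the highest Pearson correlation to each tested member, and the 2 called genes of lowest adjusted p in each list for the Parental OHT effect. All 4 called neighbours and Fto are named as well. The members and lists were chosen with earlier results of these data known. CpG content and promoters were read from RefSeq promoter sequences and the GRCm38.p6 genome. The code was tested on simulated data. Alternatives were DESeq2 1.42.0, RLE scaling, no filter, no fold threshold, a window of 2.5 kb around start sites, a replicate block, leaving out each library, a score of at least 20 and an overlap of at least 200 bp. RYBP peaks of 1 library whose title does not give its group were left out of all comparisons.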

Additional observations from a re-analysis of the deposited data

Results flagged for a closer look

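The OHT effect on Irx4 and Irx6 differed between Eed fl/fl and Parental cells in edgeR's test of that difference over all 16 libraries. For Irx4 the log2 difference, Eed fl/fl minus Parental, was -4.3 ± 1.27 (SE, adjusted p = 0.0374), and the counts went from 0 and 2 to 65 and 36 in Parental cells and from 5 and 12 to 10 and 22 in Eed fl/fl cells. For Irx6 it was -5.02 ± 1.13 (adjusted p = 0.00518), and the Eed fl/fl vehicle libraries already had counts of 17 and 46. Other genes near the members that had no read in the RING1B lines also had reads in those vehicle libraries. The primitive endoderm markers summed to 18.2 to 28.6 CPM in those vehicle libraries and to 3.23 to 3.79 CPM in the Parental ones, and their part in the difference was not tested.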

How the results depend on the processing

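Of 118 alternatives for the RNA results 106 left the number of members called the same or close to it, and of 123 for the peak counts 112 did. Direction and the identity of the members were not part of this count. With 1 library left out, the number called for the OHT effect ranged from 3 to 5 in Parental cells. It ranged from 4 to 6 in RING1B I53S cells, and both ranges were taken as close to the main number of 4. Of the alternatives for log2 values of single members 101 left direction and call as they were. Of the others, 3 lost the call of Irx2 in Parental cells and 8 turned the sign of a value that was not called. The cause of the others was not tested. The number of members called for the difference RING1B WT minus Parental was 1 in DESeq2 and 1 with no filter, against 0. With 1 library left out it ranged from 0 to 1, for RING1B I53S against RING1B WT from 1 to 3, for RING1B WT against Parental from 1 to 4, and for Eed fl/fl minus Parental from 1 to 2. For the OHT effect in RING1B WT cells, not called for any member, the log2 value then ranged from -1.07 to 0.60 for Irx2, from -0.93 to 5.83 for Irx3 and from 0 to 3.24 for Irx6. For Irx6 in Eed fl/fl cells it ranged from -0.45 to 0.88, and it was -0.03 in DESeq2. At a score of at least 20, members with a peak in RING1B I53S cells were 3 for H2AK119ub1 (from 5), 3 for H3K27me3 (from 6), 0 for JARID2 (from 2, counted in both libraries) and 2 for EPOP (from 4). In Parental cells with OHT they were 3 for H3K27me3 (from 6), 2 for JARID2 (from 5), 2 for EPOP (from 5) and 0 for PCGF6 (from 1). In RING1B WT cells they were 0 for RYBP, also at an overlap of at least 200 bp, and 1 for H3K27me3 with MTF2 KO (from 5).

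With the replicate number as a block, 4 members were called in Parental and 4 in RING1B I53S cells, 0 in RING1B WT and 0 in Eed fl/fl cells, and no other call on a member changed. The labels do not say what a number marks. Differences between replicates 1 and 2 correlated at 0 to 0.3 over the 15 pairs of groups of the RING1B lines, at 0.13 to 0.3 within a treatment and at 0 to 0.2 across treatments, and at 0.46 between the Eed fl/fl groups. There the block gave 0.94 for Irx4 (adjusted p = 0.327, edgeR). Over all genes the replicate block moved the calls of the Eed fl/fl fit from 2 to 161. Low counts limit Irx1, Irx5 and the vehicle levels of all members, which had at most 13 counts over a group in the RING1B lines.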

Other observations

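Of the noncoding genes beside the members, Gm45505, antisense to Irx6, was read in Eed fl/fl libraries (0.904 and 0.573 CPM in vehicle, 0.681 and 1.12 CPM with OHT) and in none of the 12 libraries of the RING1B lines. Gm40999, which lies 1369 bp from Irx1, was at 1.31 and 2.1 CPM in Eed fl/fl vehicle libraries and at 2.24 and 2.24 CPM with OHT, and gave reads in 1 of the 12 other libraries (0.109 CPM, Parental OHT replicate 2). This pattern was not particular to genes beside the members. Gm47838 (157017 bp from Irx2) and Gm45336 (89481 bp from Irx5) also had reads in Eed fl/fl libraries and none in the RING1B lines. The RYBP library whose group its title does not give had 61 peaks, none at an Irx gene.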
